A study of Mus musculus with 4 samples.

Results

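The BCL2 family decides, at the outer membrane of the mitochondrion, whether a stressed cell lives or dies. The 10 genes described here are the effectors Bax and Bak1, the pro-survival genes Bcl2, Bcl2l1 and Mcl1, the BH3-only genes Bid, Bad and Bbc3, and the mitophagy receptors Bnip3 and Bnip3l. They were listed by gene symbol as members of the family, but with earlier results of these data known, so the choice was not blind to their values. Each of the 10 was found on 1 row among the 23847 rows of expression values. All 10 had a mean of at least 1 FPKM over the 4 libraries and so entered the test with 11888 rows in all. FPKM are fragment counts scaled to transcript length and library size, which allows levels of different genes to be compared. The libraries were made from ventricle tissue at postnatal day 21, from male mice on the C57BL/6 background. Both Cdk8Tg libraries are from mice that overexpress Cdk8, the Mediator kinase, only in the heart, and both WT libraries are from wild-type mice. The sources used here do not state the promoter that drives the transgene or whether each library is 1 animal, and p-values therefore cover only the spread among these 4 libraries, which may be technical in origin. The comparison asks how raised Cdk8 changes transcript levels in the heart.

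In this pathway BAX and BAK1 form the pores through which cytochrome c leaves the mitochondrion, after which the apoptosome activates the caspases. BCL2, BCL-XL (the main product of Bcl2l1) and MCL1 bind and hold the effectors, while BH3-only proteins such as BID, BAD and PUMA (the product of Bbc3) bind the pro-survival proteins or activate the effectors directly. BNIP3 and BNIP3L, which is also called NIX, carry a divergent BH3 region and mark mitochondria for autophagy, and both are known targets of the hypoxia-inducible factors. Heart muscle cells hardly divide, and MCL1 is known to be needed for their survival. Much of the control of these proteins lies in cleavage, phosphorylation, binding and degradation, none of which transcript levels measure.

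Promoter sequences are shown for the pair of genes with the smallest adjusted p among those that rose, Bax and Bcl2, and for Bnip3, the gene that fell. RefSeq promoters on GRCm38.p6 cover 250 bases before to 50 bases after an annotated start, and 14 such windows matched 9 of the 10 genes by symbol. For Bnip3l no promoter is shown. Sequences are written 5′ to 3′ on the strand of the gene. Capitals mark ACGTG or GCGTG, the core bound by hypoxia-inducible factors, in Bax and Bnip3, and GGGCGG, the GC box bound by SP1-type factors, in Bcl2, each searched on both strands.
Bax: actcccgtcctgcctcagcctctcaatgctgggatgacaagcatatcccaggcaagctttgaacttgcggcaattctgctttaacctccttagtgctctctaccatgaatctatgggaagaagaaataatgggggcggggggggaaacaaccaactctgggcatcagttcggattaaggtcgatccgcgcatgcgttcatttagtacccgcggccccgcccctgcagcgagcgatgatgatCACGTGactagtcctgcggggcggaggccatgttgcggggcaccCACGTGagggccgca
Bcl2: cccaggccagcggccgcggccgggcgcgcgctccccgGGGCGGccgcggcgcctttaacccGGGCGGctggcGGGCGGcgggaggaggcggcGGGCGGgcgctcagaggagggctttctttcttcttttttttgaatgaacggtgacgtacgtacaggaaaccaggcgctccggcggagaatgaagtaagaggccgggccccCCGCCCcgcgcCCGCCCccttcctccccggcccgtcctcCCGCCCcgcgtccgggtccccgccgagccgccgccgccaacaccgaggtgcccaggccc
Bnip3: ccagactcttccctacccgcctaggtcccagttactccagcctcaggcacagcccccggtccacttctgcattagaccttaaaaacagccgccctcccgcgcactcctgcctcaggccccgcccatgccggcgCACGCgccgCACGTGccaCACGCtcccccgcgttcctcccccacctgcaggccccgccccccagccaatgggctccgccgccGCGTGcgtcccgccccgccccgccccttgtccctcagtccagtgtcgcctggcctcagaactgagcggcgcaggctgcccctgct

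These windows lie at chr7:45466849-45467148 for Bax, chr1:106714241-106714540 for Bcl2 and chr7:138909457-138909756 for Bnip3, all on the minus strand. The Bax window held the core at 2 places, both within CACGTG, a palindrome that reads as ACGTG on both strands and is also the E-box of other factors. At least 2 CACGTG were present in 0.59% of 32851 promoter windows of the same length. The Bnip3 window held the core at 4 places, of which 1 was CACGTG and the other 3 were GCGTG, and 2.64% of all windows held at least 4. The Bcl2 window held none, and carried 7 GC boxes, and 0.627% of windows held at least 7. Its GC content was 76.0%, against 71.7% for Bnip3, 57.3% for Bax and a median of 52.7% over all windows, and GC content sets how often such a motif turns up. Over the 14 windows of the family, 9 held at least 1 core, beside 43.8% of all windows. A GC box was present in 9 of the 14, beside 35.7% of all windows. The Bnip3 and Bax windows held 6 and 3 GC boxes, which are not marked above. The high counts of the Bcl2 and Bnip3 windows were not particular to those genes. A Bbc3 window also held 7 GC boxes and another Bbc3 window held the core at 4 places. Thus 2 of the 14 windows reached each of these counts. At least 2 CACGTG were present in 1 of the 14, that of Bax. Such matches describe the letters only, and no binding was measured.

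Cdk8 itself measured 7309 and 8122 FPKM in Cdk8Tg, against 7.89 and 9.86 in WT, as the labels say. The steps between low FPKM values gave a depth of about 11850000 to 13990000 fragments per library, if each library was scaled by its own total. Heart muscle markers were abundant in all 4 libraries, and the 5 markers of fast skeletal muscle summed to only 0.858 to 1.16 FPKM. Some cell type markers moved with the groups. The 6 heart muscle markers summed to 21799 and 20005 FPKM in Cdk8Tg against 32421 and 30524 in WT, with 4 of 6 called lower. The 6 fibroblast markers summed to 794 and 986 FPKM in Cdk8Tg against 637 and 622 in WT, with 5 of 6 called higher. Of all tested rows, 7.98% were called lower and 16.9% higher. After median-of-ratios scaling, described below, 4 heart muscle markers were called lower (beside 11.7% of all rows) and 3 fibroblast markers higher (beside 7.96%). The authors' deposited table called 2 of 5 heart muscle markers it tested and 2 of 6 fibroblast markers. Of the 6 endothelial markers 0 were called by limma, 0 had an unadjusted p under 0.05, and the authors' deposited table called 0, with sums of 214 to 247 FPKM. Leukocyte markers summed to 22.9 and 26.0 FPKM in Cdk8Tg and to 37.4 and 32.2 in WT, and 1 of 5 tested was called lower. The 4 atrial markers summed to 861 and 2416 FPKM in Cdk8Tg and to 670 and 225 in WT. These sums varied within groups but did not overlap between them. Of the 4, 1 was called higher, Nppa, at 780 and 2072 FPKM in Cdk8Tg against 395 and 199 in WT (limma adjusted p = 0.037). For Myl7, Myl4 and Sln the groups overlapped and there was no call, with log2 changes of -0.88, 2.05 and -1.69. The 5 smooth muscle markers summed to 564 and 862 FPKM in Cdk8Tg and to 476 and 489 in WT. Of these 1 was called higher and 4 were not called. The call was Cnn1, at 48.1 and 80.5 FPKM in Cdk8Tg against 1.34 and 1.70 in WT (log2 change 4.65, limma adjusted p = 0.0016). No marker was at 0 in every library. In bulk tissue, fewer cells of a type and less RNA per cell cannot be told apart, and the part that these shifts have in the changes below was not tested.

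Transcripts of the family shifted in both directions in Cdk8Tg ventricles. Bcl2 rose most, to 3.71 times its WT mean, and Bid, Bbc3, Bax and Bad rose to between 1.35 and 2.51 times theirs, while Bnip3 fell to 0.782 times its WT mean. Bak1, Bcl2l1, Mcl1 and Bnip3l were not called. A call means a Benjamini-Hochberg adjusted p under 0.05 over all 11888 rows, by limma on log2(FPKM + 1), so log2 changes understate the change of low genes. Thus 6 of 10 genes were called, beside 24.9% of all tested rows. Of these genes 5 were higher (16.9% of all rows) and 1 lower (7.98%). The 10 genes were chosen with earlier results of these data known, so these shares are a description and not an independent test. Bid reached the minimum only through its level in Cdk8Tg, since its WT mean was 0.745 FPKM, so its rise had to appear once it was tested and should not be counted as support. The groups did not overlap for 8 of the 10 genes, beside 70.3% of all rows. The median log2 change was 0.45 for the 10 genes and 0.13 for all rows.

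**Figure D1:**
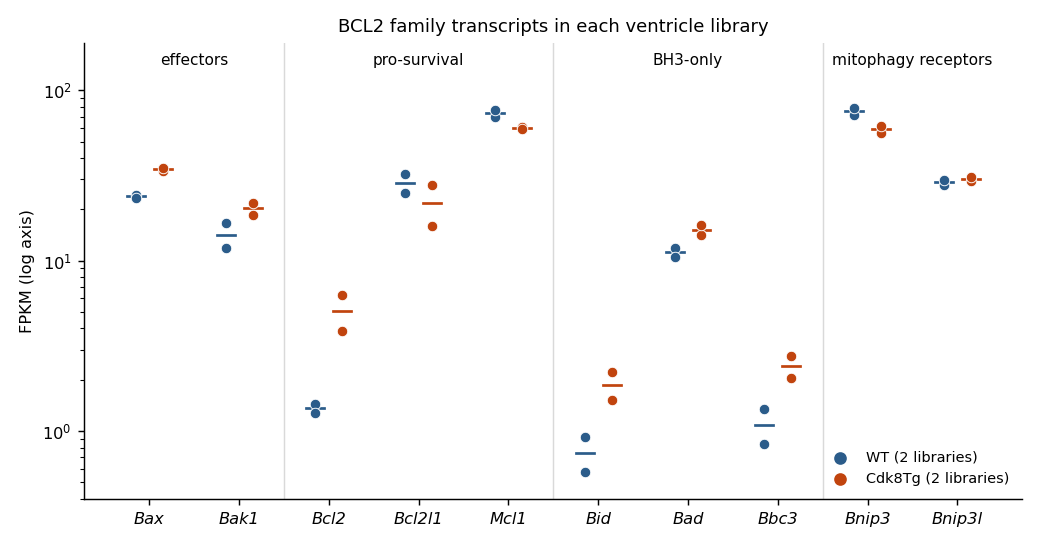
FPKM of the 10 BCL2 family genes on a log axis, with 1 point per library and a bar at the group mean (2 WT libraries in blue, 2 Cdk8Tg libraries in orange). The groups are apart for every gene but Bcl2l1 and Bnip3l, and the levels span from under 1 FPKM for Bid in WT to over 70 FPKM for Bnip3 and Mcl1 in WT.

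The share of rises depended on how libraries were scaled to each other. Median-of-ratios scaling, which moves the median of all rows from 0.13 to 0.00, lowered the log2 change of each of the 10 genes. On that scale 2 of the 10 genes rose, Bax and Bcl2 (beside 7.96% of all rows), and 2 fell, Bnip3 and Mcl1 (beside 11.7%), and the median of the 10 was 0.31. Bid, Bbc3 and Bad kept positive changes without a call. Scaling to an equal FPKM sum, which moves the median of all rows to 0.30, gave 6 rises (the 5 above and Bak1), where 41.2% of all rows were called higher, and 0 falls (5.49% of all rows), with 7 genes at an unadjusted p under 0.05. Bnip3l alone changed sign between scales, at 0.07 as deposited and -0.08 after median-of-ratios scaling. The same counts were smaller with fewer libraries. Without WT replicate 1 or without WT replicate 2, limma called 0 of the 10 genes, with 7 and 3 of them at an unadjusted p under 0.05, and it then called 5.28% and 2.41% of all rows, so 0 of 10 is near the background. It called 4 of the 10 without Cdk8Tg replicate 1 (20.0% of all rows) and 3 without Cdk8Tg replicate 2 (11.0% of all rows).

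**Figure D2:**
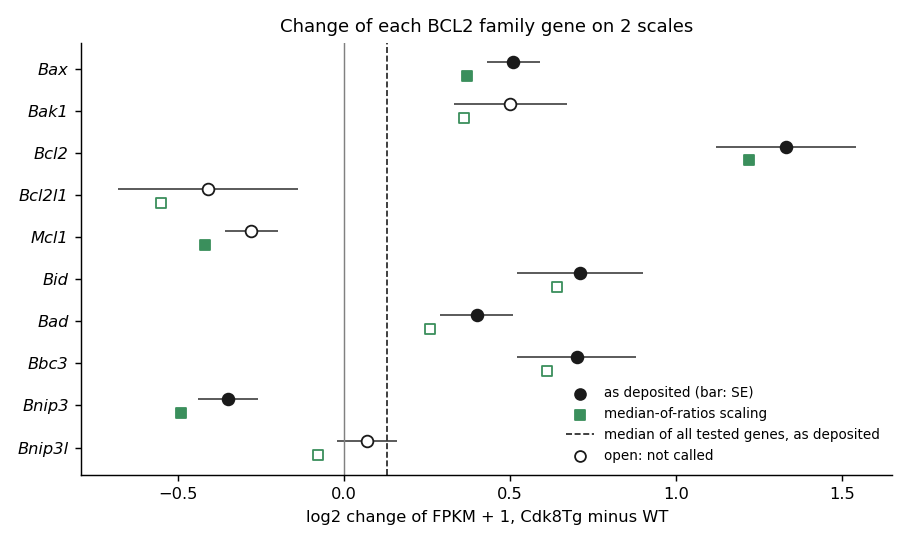
Log2 change of FPKM + 1, Cdk8Tg minus WT, for each gene as deposited (circles, bars show the SE from limma) and after median-of-ratios scaling (squares). Filled symbols passed the test, and the dashed line is the median of all tested rows at 0.13. Bcl2 stands farthest to the right on both scales, and the squares lie to the left of the circles for every gene.

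Of the pore-forming effectors, Bax rose evenly in both Cdk8Tg libraries and Bak1 was not called. Bax measured 33.7 and 35.1 FPKM in Cdk8Tg, against 24.2 and 23.4 in WT. Libraries of a group lay close together, and both Cdk8Tg libraries lay well above both WT libraries. The means were 34.4 ± 0.992 and 23.8 ± 0.550 FPKM (SD, n = 2 per group). On the log2 scale the difference was 0.51 ± 0.08 (SE; adjusted p = 0.013 by limma). This was the smallest p among the 10 genes, and the call held under all 3 other scalings, with log2 changes of 0.37 to 0.70. Leaving out WT replicate 1 ended it (log2 change 0.54, limma adjusted p = 0.069), as did leaving out WT replicate 2 (0.49, limma adjusted p = 0.094). Bak1 measured 18.6 and 21.9 FPKM in Cdk8Tg, against 16.5 and 11.8 in WT. Here the groups were apart but the WT libraries differed by more than the gap between the groups. Its log2 change was 0.50 ± 0.17 (SE; limma adjusted p = 0.085), almost the same size as that of Bax but with a wider error. The call of Bak1 appeared on the equal-sum scale only (limma adjusted p = 0.027). Bax lies on chromosome 7 at 45461697 to 45466898 and Bak1 on chromosome 17 at 27019810 to 27029009 of GRCm38, both on the minus strand. Exons of Bax overlap the annotated gene Gm45808 on the same strand. Exons of Bak1 overlap Ggnbp1 on the opposite strand, and Ggnbp1 went the other way, from 11.6 FPKM in WT to 5.31 FPKM in Cdk8Tg (log2 change -0.99, limma adjusted p = 0.0057). The libraries kept strand, but the sources used here do not state how the counting treated it, so reads of overlapping genes on opposite strands cannot be told apart.

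The pro-survival genes did not move as a group: Bcl2 rose, while Mcl1 and Bcl2l1 had negative changes without a call. Bcl2 measured 3.87 and 6.25 FPKM in Cdk8Tg, against 1.44 and 1.28 in WT. Both Cdk8Tg libraries lay far above WT, though they also differed from each other. The log2 change was 1.33 ± 0.21 (SE; limma adjusted p = 0.014), higher than that of 99.0% of tested rows. The call held under the other 3 scalings, at 1.18 to 1.47. Leaving out WT replicate 1 (1.38, limma adjusted p = 0.065) or WT replicate 2 (1.28, limma adjusted p = 0.086) ended it, and so did using no minimum on FPKM (limma adjusted p = 0.057). Bcl2 lies on chromosome 1 at 106538178 to 106714274 on the minus strand, and an antisense transcript, D630008O14Rik, overlaps its exons. In WT the level of Bcl2 lay above only 6.6% of tested rows.

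Mcl1 was the most abundant of the pro-survival transcripts in both groups. It measured 61.0 and 59.2 FPKM in Cdk8Tg, against 69.9 and 76.3 in WT. Both Cdk8Tg libraries were below both WT libraries, yet the log2 change of -0.28 ± 0.08 did not pass (SE; limma adjusted p = 0.065). It passed after median-of-ratios scaling (-0.42, limma adjusted p = 0.030), and on the equal-sum scale the change shrank to -0.08. Bcl2l1 measured 15.9 and 27.9 FPKM in Cdk8Tg, against 25.0 and 32.1 in WT. The groups overlapped, because Cdk8Tg replicate 1 was low and Cdk8Tg replicate 2 lay between the WT libraries. Its log2 change was -0.41 ± 0.27 (SE; limma adjusted p = 0.29). Without Cdk8Tg replicate 2 it was -0.80 and called (limma adjusted p = 0.0495), and without Cdk8Tg replicate 1 it was -0.02, so 1 library sets the size of this change. The FPKM is summed over transcripts of a gene, and the long and short forms of Bcl2l1 and Mcl1, whose products are known to act in opposite ways, were not separated. Mcl1 lies on chromosome 3 at 95658788 to 95663176 on the plus strand, and Bcl2l1 on chromosome 2 at 152780668 to 152831728 on the minus strand.

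Of the BH3-only genes, Bbc3 and Bad were called higher, with adjusted p values just under the threshold, and so was Bid, which entered the test only through its level in Cdk8Tg. Bid, which caspase-8 cleaves to link death receptors to the mitochondrion, measured 1.53 and 2.21 FPKM in Cdk8Tg, against 0.918 and 0.572 in WT. Bbc3, whose product PUMA is a classic p53 target, measured 2.04 and 2.75 FPKM in Cdk8Tg, against 0.838 and 1.34 in WT. Bad, whose product is held inactive by phosphorylation and 14-3-3 proteins, measured 14.1 and 16.1 FPKM in Cdk8Tg, against 11.9 and 10.6 in WT. For each of the 3, both Cdk8Tg libraries were above both WT libraries, with Cdk8Tg replicate 2 the highest. The log2 changes were 0.71 ± 0.19 for Bid (SE; limma adjusted p = 0.045), 0.70 ± 0.18 for Bbc3 (limma adjusted p = 0.046) and 0.40 ± 0.11 for Bad (limma adjusted p = 0.049). As ratios of group means these genes were 2.51, 2.20 and 1.35 times higher.

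These calls depended on the processing. After median-of-ratios scaling the adjusted p by limma was 0.063 for Bid, 0.071 for Bbc3 and 0.13 for Bad. With Cdk8Tg replicate 2, WT replicate 1 or WT replicate 2 left out, it was 0.12, 0.096 and 0.19 for Bid (log2 changes 0.54, 0.86 and 0.57), and 0.14, 0.17 and 0.095 for Bbc3 (0.55, 0.53 and 0.88). Bad lost its call without any single library, with limma adjusted p values from 0.058 (without Cdk8Tg replicate 1) through 0.11 (WT replicate 1 left out) and 0.16 (Cdk8Tg replicate 2) to 0.22 (WT replicate 2), and changes of 0.31 to 0.48. With no minimum on FPKM the limma adjusted p was 0.095 for Bid, 0.10 for Bbc3 and 0.10 for Bad, and under quantile normalization it was 0.080, 0.10 and 0.12. The depth was thin for the lower pair. Bid in WT replicate 2 rested on about 3.6 to 19.0 fragments, and Bbc3 in WT replicate 1 on 4.7 to 21.3, depending on which annotated transcript length is taken. Exons of Bid overlap the opposite-strand gene Bcl2l13, itself a divergent family member, which stood at 14.5 to 16.5 FPKM in all libraries and did not pass (log2 change -0.08). Exons of Bad overlap Gpr137 on the opposite strand, which stood at 15.1 to 16.5 FPKM (log2 change 0.08, not called). Bid lies on chromosome 6 at 120891930 to 120916853 on the minus strand, Bbc3 on chromosome 7 at 16308393 to 16318205 and Bad on chromosome 19 at 6941861 to 6951899, both on the plus strand.

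The paired mitophagy receptors differed, with Bnip3 lower and Bnip3l close to its WT level. Bnip3 measured 56.4 and 61.6 FPKM in Cdk8Tg, against 71.8 and 79.0 in WT. Both Cdk8Tg libraries were below both WT libraries. The means were 59.0 ± 3.66 and 75.4 ± 5.07 FPKM (SD, n = 2 per group). The difference in log2 was -0.35 ± 0.09 (SE; limma adjusted p = 0.047). Bnip3l measured 29.4 and 31.01 FPKM in Cdk8Tg, against 27.7 and 29.9 in WT. Those ranges overlapped, and its log2 change was 0.07 ± 0.09 (SE; limma adjusted p = 0.57). The fall of Bnip3 was lost on the equal-sum scale (-0.15, limma adjusted p = 0.23), under quantile normalization (-0.34, limma adjusted p = 0.060) and without any single library, where the change was -0.28 to -0.42. It was also lost with no minimum on FPKM (limma adjusted p = 0.084) and with no variance trend (0.066). With libraries left out, the adjusted p by limma was 0.11 and 0.070 for Cdk8Tg replicates 1 and 2, and 0.11 and 0.23 for WT replicates 1 and 2. Of the 31-base stretches of Bnip3, 57.0% occur in other annotated transcripts, most often in the long non-coding gene AC160336.1, and 23.7% of those of Bnip3l do, most often in its pseudogene Bnip3l-ps. An antisense gene, Gm45507, also overlaps exons of Bnip3 on the opposite strand. Elsewhere in the family the share was 20.4% for Bak1, 18.4% for Bad, 16.9% for Bid, 11.1% for Bax and 6.21% for Bcl2. It was 0.498% for Mcl1, 0.021% for Bcl2l1 and 0% for Bbc3. Shared stretches may affect the values of both receptors and of the other genes that hold them. These shares do not measure the size of such an effect, which was not tested. Bnip3 lies on chromosome 7 at 138890836 to 138909519 and Bnip3l on chromosome 14 at 66985239 to 67008877, both on the minus strand.

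A ratio of FPKM within a library does not depend on the scaling between libraries, and 6 such ratios were taken. With 2 libraries against 2, an exact permutation test cannot give a two-sided p below 0.333, so the ratios are a description without a test. The Bax to Bcl2 ratio, often read as a balance of death and survival, was 8.72 and 5.62 in Cdk8Tg and 16.8 and 18.2 in WT. It was thus lower in Cdk8Tg, because Bcl2 was raised more than Bax. Against Bcl2l1 the direction was the opposite. The Bax to Bcl2l1 ratio was 2.13 and 1.26 in Cdk8Tg and 0.968 and 0.730 in WT. Bak1 to Bcl2l1 stood at 1.17 and 0.787 in Cdk8Tg and at 0.661 and 0.367 in WT. Bak1 to Mcl1, a pair that bind each other, stood at 0.305 and 0.370 in Cdk8Tg and at 0.236 and 0.154 in WT. So the balance of effector to pro-survival transcripts was lower or higher in Cdk8Tg according to which pro-survival gene was the partner. Mcl1 outnumbered Bcl2 by 15.8 and 9.47 to 1 in Cdk8Tg and by 48.4 and 59.4 to 1 in WT. Bnip3 to Bnip3l was the tightest ratio within groups, at 1.92 and 1.99 in Cdk8Tg and 2.60 and 2.64 in WT.

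**Figure D3:**
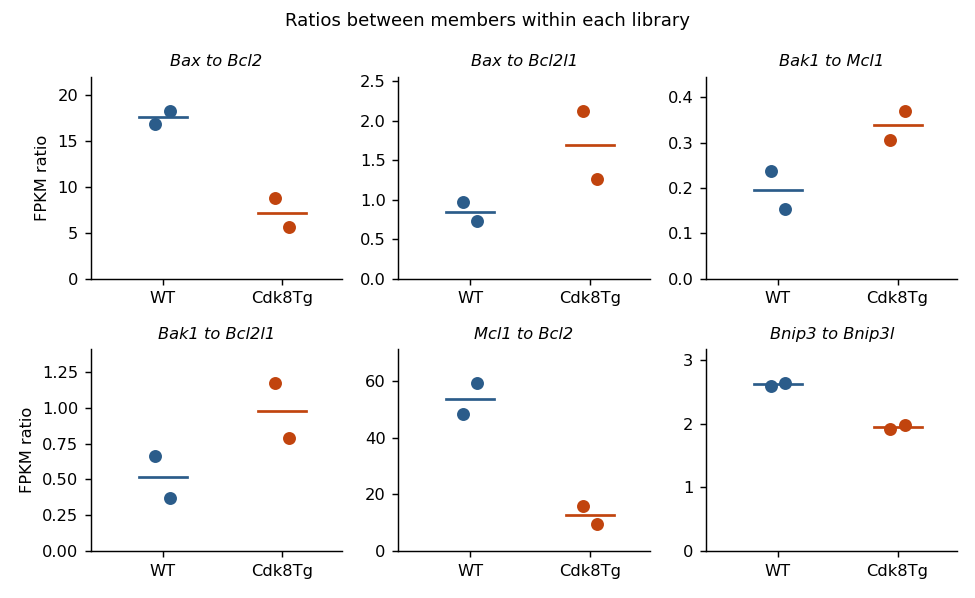
FPKM ratios between pairs of family members within each library (points, 2 WT in blue and 2 Cdk8Tg in orange, with a bar at the group mean; each axis starts at 0). The Bax to Bcl2, Mcl1 to Bcl2 and Bnip3 to Bnip3l ratios are lower in both Cdk8Tg libraries, and the other 3 ratios are higher.

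The order of levels was similar in both groups. In WT, Bnip3 (75.4 FPKM) and Mcl1 (73.1) led with overlapping libraries, followed by Bnip3l (28.8) and Bcl2l1 (28.6), which also overlapped, then Bax (23.8). Bak1 (14.2) and Bad (11.2) came next and overlapped each other, and Bcl2 (1.36), Bbc3 (1.09) and Bid (0.745) were at the bottom, each overlapping its neighbour. In Cdk8Tg, Mcl1 (60.1) and Bnip3 (59.0) overlapped at the top, and Bax (34.4) stood above Bnip3l (30.2), with no overlap between their libraries. Bcl2l1 (21.9) and Bak1 (20.3) overlapped, Bad (15.1) and Bcl2 (5.06) each stood clear of their neighbours, and Bbc3 (2.40) and Bid (1.87) overlapped at the end. The summed FPKM of the 10 genes was 237 and 264 in Cdk8Tg and 250.2 and 266 in WT, so the sums overlapped while the makeup shifted. Bcl2 made up 1.63% and 2.37% of that sum in Cdk8Tg and 0.577% and 0.482% in WT. For Bnip3 the share was 23.8% and 23.3% in Cdk8Tg against 28.7% and 29.7% in WT, and for Bax 14.3% and 13.3% against 9.68% and 8.80%.

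Other genes around the family were taken from 11 lists, chosen with earlier results of these data known, of which 89 of 90 symbols were found and 81 tested. Of these 81, 17 rose and 10 fell, with a median log2 change of 0.07, and the share called was 33.3%, beside 24.9% of all rows (16.9% higher and 7.98% lower). After median-of-ratios scaling 8 rose and 14 fell, beside 7.96% and 11.7% of all rows. These shares of all rows are the background for each list below. Among further family members, the effector Bok and the BH3-only gene Bik rose. Of the other BH3-only genes tested, Bcl2l11, which encodes BIM, had a log2 change of -0.24 with overlapping groups and Bmf one of 0.18, and neither was called. Bik measured 18.2 and 15.7 FPKM in Cdk8Tg, against 7.44 and 5.28 in WT, a log2 change of 1.30 ± 0.16 (SE; limma adjusted p = 0.0087), and kept its call without any single library. Bok measured 6.08 and 6.78 FPKM in Cdk8Tg, against 3.03 and 2.76 in WT, a log2 change of 0.93 ± 0.11 (SE; limma adjusted p = 0.0074), and lost its call without WT replicate 2 (0.88, limma adjusted p = 0.060). Both had a smaller adjusted p than any of the 10 genes. The pro-survival gene Bcl2l2, at 20.0 to 23.4 FPKM in all libraries, was not called, and 4 others of its group, as well as the BH3-only genes Hrk and Pmaip1, were below the minimum. Of 5 tested divergent relatives 0 were called by limma, with 1 at an unadjusted p under 0.05 and 0 called in the authors' deposited table. After median-of-ratios scaling limma called 1 of them lower, Bcl2l12, at -0.48.

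Of 13 genes that act downstream of the mitochondrion, 3 rose and 2 fell, with a median of 0.07 (38.5% called, beside 24.9% of all rows). After median-of-ratios scaling 2 rose and 3 fell. Casp6, an executioner caspase, measured 18.3 and 14.7 FPKM in Cdk8Tg, against 6.92 and 6.59 in WT (log2 change 1.16 ± 0.12 SE, limma adjusted p = 0.0065), and Casp9, the initiator caspase of the apoptosome, rose by 0.50. After median-of-ratios scaling Casp9 was not called (limma adjusted p = 0.062). Cycs, which encodes cytochrome c, measured 262 and 235 FPKM in Cdk8Tg, against 383 and 363 in WT (-0.58 ± 0.10 SE, limma adjusted p = 0.015), and the mitochondrial nuclease gene Endog changed by -0.57. Of the 5 inhibitor of apoptosis genes 0 were called by limma, with 1 at an unadjusted p under 0.05 and 0 in the authors' deposited table. Among 9 genes of death receptors, related receptors and their signalling partners 1 rose, Tnfrsf12a, the receptor of the cytokine TWEAK, by 1.37. The death receptor genes Fas (-0.02), Tnfrsf1a (-0.08) and Tnfrsf10b (0.21) were not called. Casp8, which encodes the protease that cleaves BID, was at 3.46 to 4.01 FPKM with no call. Without WT replicate 2 the calls of Casp6 (1.13, limma adjusted p = 0.054), Cycs (-0.62, limma adjusted p = 0.096), Endog (-0.53, limma adjusted p = 0.11) and Tnfrsf12a (1.15, limma adjusted p = 0.10) were lost. Those of Cycs (-0.55), Endog (-0.61) and Tnfrsf12a (1.60) were also lost without WT replicate 1, at limma adjusted p values of 0.10, 0.077 and 0.056. Endog lost its call without Cdk8Tg replicate 2 too (-0.48, limma adjusted p = 0.059), and Cycs under quantile normalization (-0.36, limma adjusted p = 0.057).

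Some genes of the mitochondrial membranes and of mitophagy fell on the deposited scale and after median-of-ratios scaling, while the 3 that rose did so on the deposited scale and were not called after median-of-ratios scaling. The lower values came from libraries in which the heart muscle markers were lower in sum (20005 and 21799 FPKM in Cdk8Tg, 30524 and 32421 in WT). The part of that shift in these falls was not tested. Of 8 genes of mitochondrial channels, carriers and associated proteins 3 fell and 1 rose, with a median of -0.15 (after median-of-ratios scaling 3 fell and 0 rose). The rise was that of Tspo (0.58, and 0.43 with limma adjusted p = 0.085 after that scaling). Slc25a4, the adenine nucleotide carrier of heart and muscle, changed by -0.92, and the outer-membrane channel genes Vdac1 and Vdac3 by -0.51 and -0.32. Vdac2, whose product is known to bind BAK1, was at 269 to 290.3 FPKM with no call. Of 16 mitophagy genes beside Bnip3 and Bnip3l, 3 fell and 2 rose, with a median of 0.05, so 31.2% were called, near the 24.9% of all rows. After median-of-ratios scaling 3 fell and 0 rose, and the pair that had risen, Becn1 and Gabarap, had limma adjusted p values of 0.11 and 0.19. The falls were Map1lc3a, an LC3 gene, from 391 and 393 FPKM in WT to 236 in each Cdk8Tg library (-0.73), Pink1, the kinase that marks damaged mitochondria (-0.68), and the inner-membrane receptor gene Phb2 (-0.55). Map1lc3b, the other LC3 gene, stood at 139 to 145 FPKM without a call. Of 10 genes that control MCL1, BAD or their kin, 3 rose and 1 fell. The 14-3-3 gene Ywhaz rose by 0.46 and Usp9x, whose product removes ubiquitin from MCL1, by 0.35, and the kinase gene Pim3 changed by -0.59. Slc25a4, Vdac1, Vdac3, Map1lc3a, Pink1, Phb2, Ywhaz and Usp9x each lost the call without either WT library (limma adjusted p from 0.057 to 0.20), and Pim3 did without WT replicate 2 (0.11). Without Cdk8Tg replicate 1, Vdac3, Usp9x and Pim3 lost theirs (limma adjusted p from 0.0504 to 0.059), and without Cdk8Tg replicate 2, Vdac3, Phb2, Ywhaz, Usp9x and Pim3 did (0.074 to 0.10). Neither Ywhaz nor Usp9x was called after median-of-ratios scaling, and quantile normalization ended the calls of Slc25a4 (-0.21, limma adjusted p = 0.23), Vdac1 (-0.22, 0.11), Vdac3 (-0.25, 0.066) and Usp9x (0.27, 0.074). On the equal-sum scale Vdac3 was at -0.12 (limma adjusted p = 0.23).

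Among p53 and its targets, which share Bbc3, Bax and, by some routes, Bid with the family, 5 of 10 genes rose and 1 fell, with a median of 0.48, where 16.9% and 7.98% of all rows rose and fell. After median-of-ratios scaling 3 rose and 2 fell, where 7.96% and 11.7% of all rows did. Phlda3, an inhibitor of AKT, rose from 7.42 and 6.13 FPKM in WT to 34.9 and 35.0 in Cdk8Tg (log2 change 2.21 ± 0.11 SE, limma adjusted p = 0.0013) and kept its call without any single library. Mdm2, the ubiquitin ligase of p53, rose by 0.51, as Bax did, and the receptor gene Eda2r by 0.81. The calls of Mdm2 and Eda2r were lost without WT replicate 1 (0.52 and 0.83, limma adjusted p = 0.070 and 0.068) and without WT replicate 2 (0.49 and 0.79, limma adjusted p = 0.092 and 0.087). The gene that fell was Sesn1, at 40.45 and 44.3 FPKM in Cdk8Tg against 71.7 and 115 in WT (log2 change -1.08, limma adjusted p = 0.025). Ccng1 changed by -0.22 without a call (limma adjusted p = 0.099). After median-of-ratios scaling both were called lower, Sesn1 at -1.23 (limma adjusted p = 0.020) and Ccng1 at -0.36 (0.035). Trp53 itself measured 13.6 and 12.0 FPKM in Cdk8Tg, against 11.0 and 7.97 in WT, without a call (log2 change 0.41, limma adjusted p = 0.11).

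**Figure D4:**
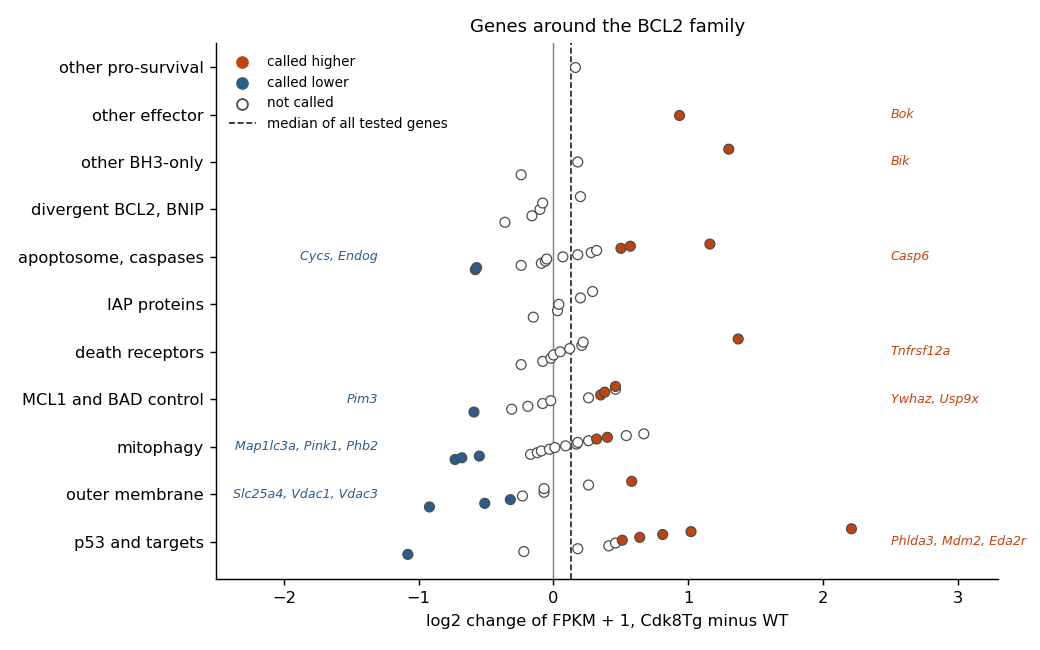
Log2 change of FPKM + 1, Cdk8Tg minus WT, of the 81 tested genes in 11 lists around the family, 1 point per gene (orange called higher, blue called lower, open not called). The dashed line is the median of all tested rows at 0.13, up to 3 called genes per list are named at the sides, and Phlda3 lies farthest to the right at 2.21.

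The genes whose pattern over the 4 libraries was most like that of Bax were Pygo2, Cds2 and Six4. Likeness was the Euclidean distance of log2(FPKM + 1) after centring each gene on its mean, which was 0.021, 0.021 and 0.026. Cds2 measured 41.5 and 42.4 FPKM in Cdk8Tg, against 29.4 and 28.5 in WT, and Pygo2 at 7.99 and 8.21 against 5.42 and 5.29. With 4 libraries in 2 groups many genes share such a pattern.

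The authors' deposited table, which holds 1 Cuffdiff FPKM per group, called 3 of the 10 genes at a q-value under 0.05, beside 14.0% of the 12393 genes it tested. In the authors' deposited table Bcl2 went from 1.71 FPKM in WT to 5.73 in Cdk8Tg (q = 0.00086) and Bnip3 from 95.8 to 67.1 (q = 0.035). The authors' deposited table also called Bcl2l1, which limma did not, at 36.3 FPKM in WT and 24.8 in Cdk8Tg (q = 0.028). Bax (q = 0.27), Bid (q = 0.075), Bbc3 (q = 0.083) and Bad (q = 0.65) were not called in the authors' deposited table. The direction in the authors' deposited table was that of limma for 9 of the 10 genes, with Bnip3l at -0.09 there. Both treatments therefore called Bcl2 higher and Bnip3 lower, and they parted on the remaining calls.

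**Figure D5:**
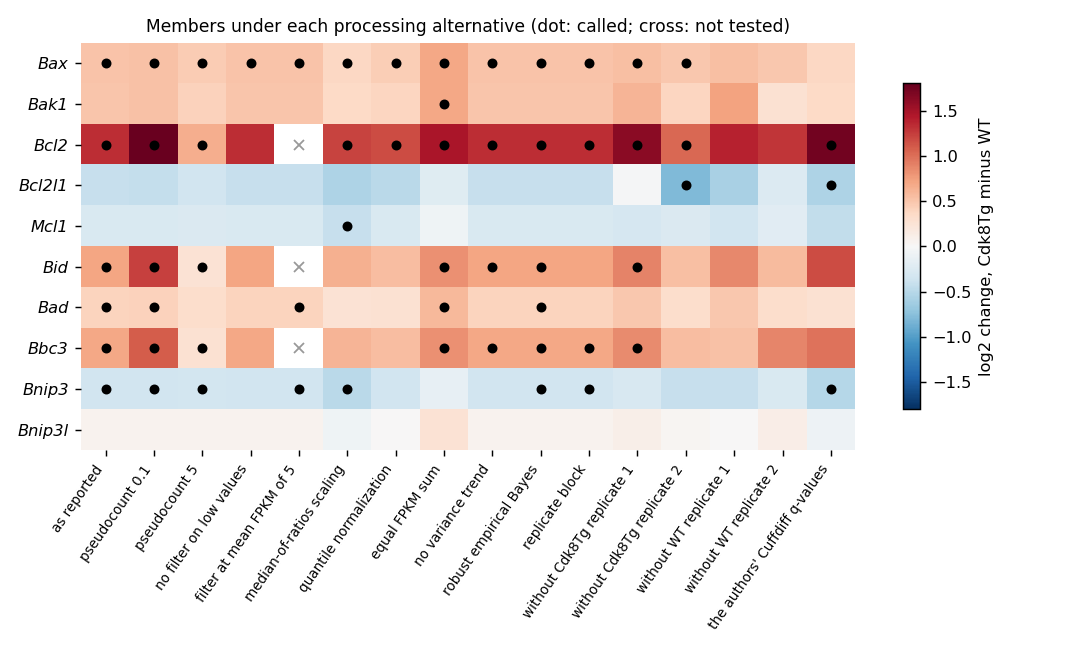
Log2 change of each of the 10 genes (colour, red higher and blue lower in Cdk8Tg) under the reported test and 15 alternatives, with a dot where the gene passed the test and a cross where it fell below a minimum of 5 FPKM. Bax carries a dot in all columns but those that leave out WT replicate 1 or WT replicate 2 and the one for the authors' q-values, and the 2 columns that leave out a WT library carry no dot.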

How the data were processed

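Polyadenylated RNA of 4 ventricle libraries was measured, 2 Cdk8Tg and 2 WT, grouped by sample title. Per the labels, reads were aligned to mm10 with TopHat (alignment app 1.0.0, per the submitters' processing notes), and Cufflinks and Cuffdiff followed. For the last pair, versions, annotation and strand handling are not given in the sources read. The authors deposited FPKM per gene and library, with no counts, and the scaling between libraries is not stated. The second table gives, per the file headers, the authors' FPKM for each group beside their p-value and q-value.

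Rows with a mean of at least 1 FPKM were tested with limma 3.58.1 in R 4.3.3 on log2(FPKM + 1), with trended empirical Bayes variance, 2 residual degrees of freedom and Benjamini-Hochberg adjustment over all 11888 rows. Depth was read from FPKM steps under 0.1 in genes with 1 annotated transcript over 800 bases. Positions, exon overlaps and shared 31-base stretches (either strand) come from GENCODE M21 on GRCm38, which is mm10. The test was checked on simulated data. The members and lists were chosen with earlier results of these data known. Named genes are the 10 members, Cdk8, up to 3 called genes per list by smallest p, and the 3 nearest patterns to the called member with the smallest p. Casp9, Casp8, Bcl2l2, Bcl2l11, Bmf, Bcl2l12, Tspo, Becn1, Gabarap, Vdac2, Map1lc3b, Trp53 and the genes overlapping members were named after their values were seen, and so were the promoter motifs. The same holds for Fas, Tnfrsf1a, Tnfrsf10b, Sesn1, Ccng1, Cnn1 and the atrial markers. Alternatives were other pseudocounts, minimums, scalings and variance models, a block for the replicate number, each library left out in turn, and the authors' q-values.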

Additional observations from a re-analysis of the deposited data

How the results depend on the processing

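With 4 libraries and 2 residual degrees of freedom, calls near the threshold move easily, and low genes rest on few fragments. The 10 genes counted 6 calls, which became 1 with no minimum on FPKM, 3 of 7 tested with a minimum of 5 FPKM, 2 with quantile normalization and 3 by the authors' q-values. When 1 library was left out, 0 to 4 of them were called. The 81 related genes counted 27 calls, against 7 with no minimum, 17 with quantile normalization, 43 on the equal-sum scale and 15 by the authors' q-values, and 2 to 22 with 1 library left out. Of all rows 2958 were called, against 1055 with no minimum, 5552 on the equal-sum scale and 1730 by the authors' q-values, and 287 to 2380 with 1 library left out. Fewer residual degrees of freedom come with each library left out, and the cause of the other moves was not tested. Bnip3l, never called, turned to -0.08 after median-of-ratios scaling and -0.09 in the authors' deposited table. The ratios within libraries moved by less than 1 SD when taken from group means. With the replicate number as a block, limma called 4 of the 10 genes (Bid and Bad were lost), 28 related genes and 2825 rows. Same-numbered libraries did not deviate together across genes (correlation -0.026 over 11888 rows). The labels state no batch, and with 1 difference per group this value cannot exclude one.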
